A study of Mus musculus with 2 samples.

Results

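Cxcl12, Cxcr4, Ackr3, Cxcl14 and Cx3cl1 are 5 chemokine genes, 3 for secreted or shed ligands and 2 for receptors, that are known for guiding migrating neurons and for contact between neurons and microglia. They were picked by name out of the 43346 genes in the quantification tables of 2 mouse hindbrains, and were chosen with their levels in these libraries already known, so their levels below are a description. All 5 were found in both tables, and the mean level of every one was at least 1 TPM, the unit of transcripts scaled to a fixed total per library. The tissue is hindbrain, the part of the brain that forms cerebellum, pons and medulla, from B6NCrl mouse embryos of 14.5 days. The labels describe each library as made from the single hindbrain of 1 pup, yet give the sex of each as pooled male and female and list the same donor for both. The 2 libraries form 1 group, no second condition was compared, and each was collected on its own date, so date and replicate cannot be told apart.

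Chemokines are small secreted proteins that cells follow along a gradient through receptors coupled to inhibitory G proteins. Cxcl12 is made by the meninges, the membranes over the brain, and in the developing cerebellum it holds granule cell progenitors, which carry Cxcr4, at the outer surface. Ackr3 binds the same ligand but does not signal through G proteins; it takes Cxcl12 up and clears it, which shapes the gradient that Cxcr4 reads. Cx3cl1, also called fractalkine, is made largely by neurons as a protein held in the membrane on a long stalk and can be shed, and its receptor Cx3cr1 is a mark of microglia. Cxcl14 is a CXC chemokine whose signalling receptor is less settled.

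The families of the 3 ligands are defined by the spacing of their first cysteines, and the coding sequence around that pair is shown here because it separates Cx3cl1 from the others. The bases come from GENCODE M21 transcripts on GRCm38, and the capitals mark the cysteine codons.
Cxcl12-202: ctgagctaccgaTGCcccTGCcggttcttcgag
Cxcl14-201: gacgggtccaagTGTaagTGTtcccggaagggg
Cx3cl1-201: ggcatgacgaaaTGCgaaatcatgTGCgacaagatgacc
The stretch of Cxcl12 lies at chr6:117171496-117171528 on the plus strand, and its first cysteine is codon 30 of 89. The stretch of Cxcl14 lies at chr13:56295903-56296113 on the minus strand across an intron, and its first cysteine is codon 25 of 99. In both genes 1 codon stands between the cysteines, the CXC pattern. The stretch of Cx3cl1 lies at chr8:94778039-94778077 on the plus strand, with the first cysteine at codon 32 and 3 codons between the pair, the CX3C pattern. Its coding sequence of 395 codons is also the longest of the 3, as the stalk and the membrane anchor are part of the same protein.

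The receptors belong to the G protein-coupled receptor family, and both carry codons for the Asp-Arg-Tyr motif at the inner end of the third membrane pass, the place where chemokine receptors meet the G protein. The capitals mark those 3 codons.
Cxcr4-201: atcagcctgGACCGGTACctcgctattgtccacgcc
Ackr3-201: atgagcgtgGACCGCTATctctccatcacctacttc
The Cxcr4 stretch lies at chr1:128589494-128589529 on the minus strand and the motif starts at codon 135 of 359. The Ackr3 stretch lies at chr1:90214232-90214267 on the plus strand and the motif starts at codon 141 of 362. Over the 36 bases shown, 12 differ between the receptors.

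The libraries held 34929425 and 33510896 expected counts, which are the authors' estimates of reads per feature, with spike-in RNAs at 8.15% and 7.72% of all TPM. In both libraries 15088 genes (34.8%) reached 1 TPM. All 10 listed genes of hindbrain identity, Hox genes and Gbx2, reached 1 TPM in both libraries, with Hoxa5 at 142 and 141 TPM. Of 8 forebrain genes 1 reached it, Lhx2, which is not restricted to the forebrain. Rounded counts were compared by an exact two-sided binomial test with Benjamini-Hochberg adjustment over the 17689 genes averaging 10 counts or more. It called 6082 genes (34.4%) different between the libraries, of which 45.7% were higher in replicate 2. That split was 54.1% with TMM scaling and 80.6% with scaling to the spike-in RNAs, which moved the median log2 ratio of scaled counts from -0.02 to 0.11 over genes averaging 1 TPM or more. With a 2-fold difference required as well, 555 genes (3.14%) were called. The test compares 2 libraries and not 2 conditions, and the spread between them may be technical.

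Cxcl12 was the most abundant of the 5 genes. It stood at 48.8 TPM in replicate 1 and 50.4 TPM in replicate 2, a mean of 49.6 ± 1.10 TPM (SD, n = 2). The libraries gave nearly the same level, and the authors' credibility intervals, 45.5 to 49.7 and 46.7 to 51.2 TPM, overlapped. By mean TPM it ranked 3481 of all genes, above 76.9% of the genes detected in both libraries. The gene (ENSMUSG00000061353.7, chr6:117168535-117181367, plus strand) took 2161 and 2021 expected counts. With counts scaled by each library's gene total, the ratio of replicate 2 to replicate 1 was 0.972, with a 95% exact interval of 0.914 to 1.03 for counting error alone. Its sign depended on the scale, since the log2 ratio was 0.04 for TPM + 1, -0.02 for TMM-scaled counts and 0.08 for spike-in scaled counts, and Cxcl12 was called different under none of these scalings.

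Cx3cl1 was the next in level, at 25.0 TPM in replicate 1 and 30.1 TPM in replicate 2 (27.5 ± 3.60 TPM, SD, n = 2). Replicate 2 was the higher library, and the authors' intervals of 23.8 to 27.5 and 27.8 to 33.1 TPM lay just apart. The gene (ENSMUSG00000031778.8, chr8:94772009-94782427, plus strand) ranked 5633 by mean TPM. The ratio of TPM also depends on effective length and on the total that values are scaled to. The expected counts of Cx3cl1 were 1716 and 1815. Scaled by gene totals their ratio was 1.1 (95% exact interval 1.03 to 1.18), whereas the ratio of TPM was 1.2. TPM divides by an effective length averaged over transcripts, which was 3212 bases in replicate 1 and 3087 bases in replicate 2, since some reads of replicate 2 were assigned to a short transcript. With spike-in scaled counts, which are not divided by length, the log2 ratio was 0.26, the same as for TPM + 1.

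Cxcl14 had the lowest level and the widest spread of the 5. It stood at 1.74 TPM in replicate 1 and 4.72 TPM in replicate 2 (3.23 ± 2.11 TPM, SD, n = 2). Replicate 1 was low, replicate 2 was high, and the authors' intervals of 1.29 to 2.12 and 3.90 to 5.32 TPM did not overlap. The gene (ENSMUSG00000021508.10, chr13:56288643-56296551, minus strand) took 64 and 159 expected counts. The scaled count ratio was 2.58, with a 95% exact interval of 1.92 to 3.51. Length played no part here, since the effective length was 1724 bases in both libraries. The difference on the log2 scale of TPM + 1 was 1.06, which understates the change of a gene this low, and with a pseudocount of 0.01 it was 1.43.

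The receptors Ackr3 and Cxcr4 lay at similar levels, well below Cxcl12. Ackr3 (ENSMUSG00000044337.5, chr1:90203980-90216751, plus strand) stood at 8.75 and 8.29 TPM in replicates 1 and 2 (8.52 ± 0.325 TPM, SD, n = 2). Its libraries were close, the authors' intervals of 7.93 to 9.46 and 7.43 to 9.13 TPM overlapped, and the scaled count ratio was 0.884 (95% exact interval 0.78 to 1). Cxcr4 (ENSMUSG00000045382.6, chr1:128588199-128592293, minus strand) stood at 6.77 and 8.51 TPM (7.64 ± 1.23 TPM, SD, n = 2). Replicate 2 was higher, but the intervals of 5.97 to 7.89 and 7.22 to 9.67 TPM overlapped. As for Cx3cl1, counts scaled by gene totals differed less than the TPM. The counts of 247 and 260 gave a scaled ratio of 1.09 (95% exact interval 0.916 to 1.31) against a TPM ratio of 1.26. The effective length of the gene was 8.4% shorter in replicate 2. The gap also depended on the scaling, since the log2 ratio was 0.25 for spike-in scaled counts and 0.29 for TPM + 1.

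**Figure D1:**
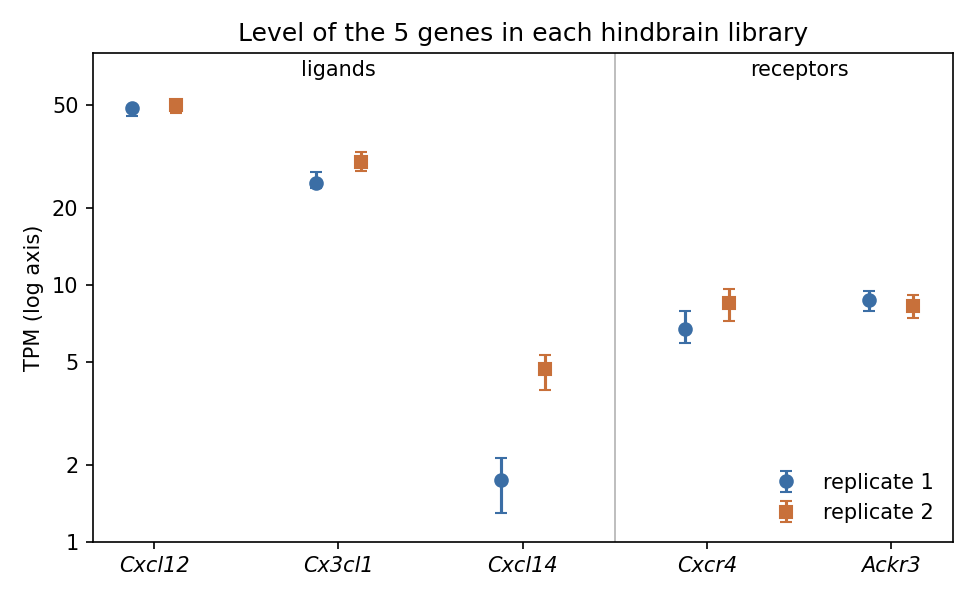
Level in TPM (log axis) of the 3 ligands and the 2 receptors in replicate 1 (circles) and replicate 2 (squares), with bars for the authors' credibility interval. Cxcl12 lies near 50 TPM in both libraries, the receptors lie between 6.77 and 8.75 TPM, and the bars of the libraries lie apart for Cx3cl1 and Cxcl14.

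The order of levels in TPM was Cxcl12, Cx3cl1, the receptors, then Cxcl14, in each library. Between the receptors the order was not fixed. Ackr3 was 1.29 times Cxcr4 in replicate 1, where their intervals lay just apart, and 0.974 times Cxcr4 in replicate 2, where they overlapped. Cxcl12 stood at 7.21 and 5.92 times the level of Cxcr4 in replicates 1 and 2 (6.56 ± 0.913, SD, n = 2). Against Ackr3 the ratio was 5.58 and 6.07 (5.83 ± 0.352). Even summed, the receptors came to 15.5 and 16.8 TPM, below Cxcl12 in each library. These are averages over all cells of a hindbrain, and a gene high in few cells cannot be told apart from one low in many. For the same reason a lower level can come from fewer cells of a type or from less RNA per cell, which bulk tissue cannot tell apart.

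Between the libraries Cxcl14 and Cx3cl1 were called different, both higher in replicate 2, also with TMM, DESeq2 and spike-in scaling. That is 2 of the 5 genes against 34.4% of all genes tested, and as the genes were chosen with these values known, nothing is read from the count. With a 2-fold difference required the call was lost for Cx3cl1, and Cxcl14 alone was left, against 3.14% of all genes. Among the 15661 genes averaging 1 TPM or more, the median log2 ratio of TPM + 1 was 0.05 with an SD of 0.35, and 240 genes (1.53%) lay beyond a 2-fold difference. The median over the 5 genes was 0.26, and Cxcl14 was the member beyond the 2-fold line.

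**Figure D2:**
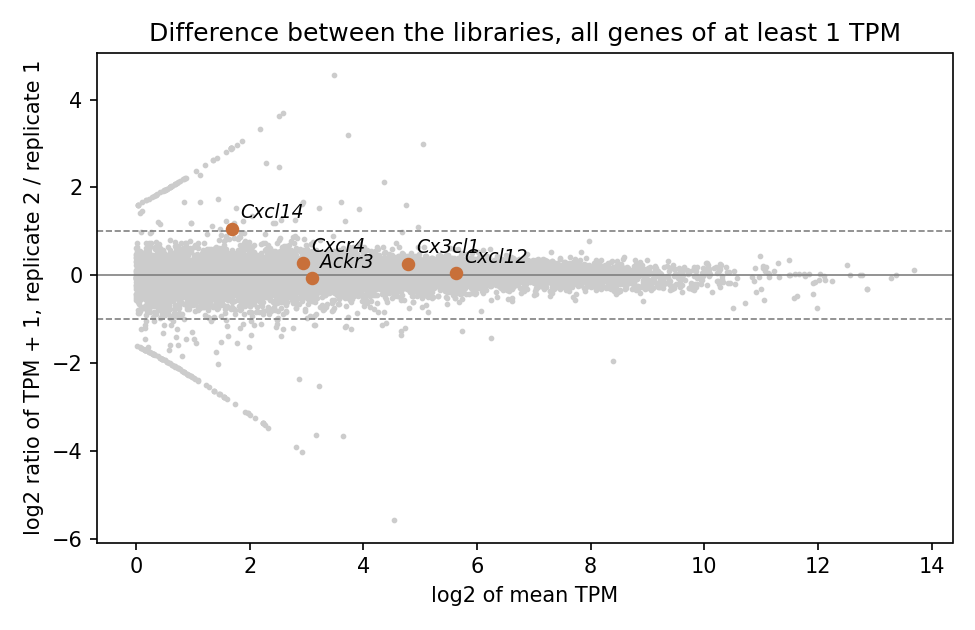
Each grey point is 1 of the 15661 genes averaging 1 TPM or more, by the log2 of its mean TPM (x axis) and the log2 ratio of TPM + 1, replicate 2 over replicate 1 (y axis), with dashed lines at a 2-fold difference. Of the 5 marked genes Cxcl14, at 1.06, lies just above the upper line and the others lie between -0.07 and 0.29; the slanted rows of points are genes listed at or near 0 in 1 library.

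Other tissue markers differed between the libraries as well, some lists lower and others higher in replicate 2. Over all genes tested 34.4% were called, or 43.6% with spike-in scaling. Choroid plexus genes, of which 6 of 7 reached 1 TPM in both libraries, summed to 1930 TPM in replicate 1 and 1168 TPM in replicate 2, with 5 called lower and 1 higher. Genes of meninges and fibroblasts, the tissue that makes Cxcl12, summed to 778 and 647 TPM, and 7 of 8 were called lower in replicate 2, or 6 with spike-in scaling. Collagen genes Col3a1, at 308 and 260 TPM, and Col1a2, at 158 and 132 TPM, were among them, while Cxcl12 itself was not called. Purkinje lineage genes summed to 376 and 439 TPM, with 6 of 9 called higher and 1 lower, or 7 and 0 with spike-in scaling. Pcp4, a calmodulin-binding peptide of Purkinje cells, stood at 273 and 310 TPM and Foxp2, a transcription factor of the same cells, at 17.8 and 27.4 TPM. The rhombic lip and granule lineage summed to 265 and 276 TPM, with 4 of 11 called higher and 2 lower, or 7 and 1 with spike-in scaling. Hindbrain identity genes summed to 420 and 391 TPM, with 7 of 10 called lower, or 4 with TMM or spike-in scaling. Forebrain genes summed to 10.6 and 16.2 TPM, nearly all of it Lhx2, with 2 of 3 tested called higher, or 3 with spike-in scaling. The 2 were Lhx2 and Six3, the latter on 1 and 19 counts, and the third was Tbr1, on 16 and 30 counts. Nkx2-1 went the other way, on 1 and 0 counts, and Emx1 and Dlx5 stood at 0. No gene of the first 4 lists was at 0 counts in both libraries. The part of such shifts in the values of Cxcl14 and Cx3cl1 was not tested.

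Cxcl12 is read into several forms of the protein that share 89 codons and differ in what follows. The end of each coding sequence is printed because the tail is where the forms part, with capitals for the bases after the shared codons, stop codon included.
Cxcl12-202: tacctggagaaagctttaaacaagTAA
Cxcl12-203: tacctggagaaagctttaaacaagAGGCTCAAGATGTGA
Cxcl12-201: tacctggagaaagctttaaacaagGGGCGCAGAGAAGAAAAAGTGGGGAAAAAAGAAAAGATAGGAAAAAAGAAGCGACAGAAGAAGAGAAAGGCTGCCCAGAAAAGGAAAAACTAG
All 3 start at chr6:117173556 on the plus strand of GRCm38. Cxcl12-202 stops at once, at chr6:117173556-117173582, and encodes the form known as alpha. Cxcl12-203, spliced over chr6:117173556-117178598, adds 4 codons, 2 of them for lysine or arginine, and encodes the beta form. Cxcl12-201, spliced over chr6:117173556-117176179, adds 30 codons, 17 of them for lysine or arginine, and encodes the gamma form, known for binding heparan sulfate through this basic tail.

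The alpha form held most of the Cxcl12 signal in both hindbrains. Cxcl12-202 stood at 40.98 TPM in replicate 1 and 43.13 TPM in replicate 2, which was 83.97% and 85.65% of the gene (84.8% ± 1.19, SD, n = 2). The beta transcript Cxcl12-203 stood at 4.56 and 4.08 TPM, 9.34% and 8.1% of the gene (8.72% ± 0.877). The gamma transcript Cxcl12-201 stood at 1.92 and 2.02 TPM, 3.93% and 4.01% of the gene (3.97% ± 0.0566). All were above 0 in each library, and their order was the same in both. The remaining 2.76% and 2.24% went to Cxcl12-204, a transcript that keeps an intron and has no coding sequence. The authors' intervals of all 4 transcripts overlapped between the libraries. The gamma transcript, with 5627 bases the longest, rested on 226.82 and 218.11 estimated counts. The share of reads among transcripts with common exons is an estimate of the authors' program and depends on the gene model.

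**Figure D3:**
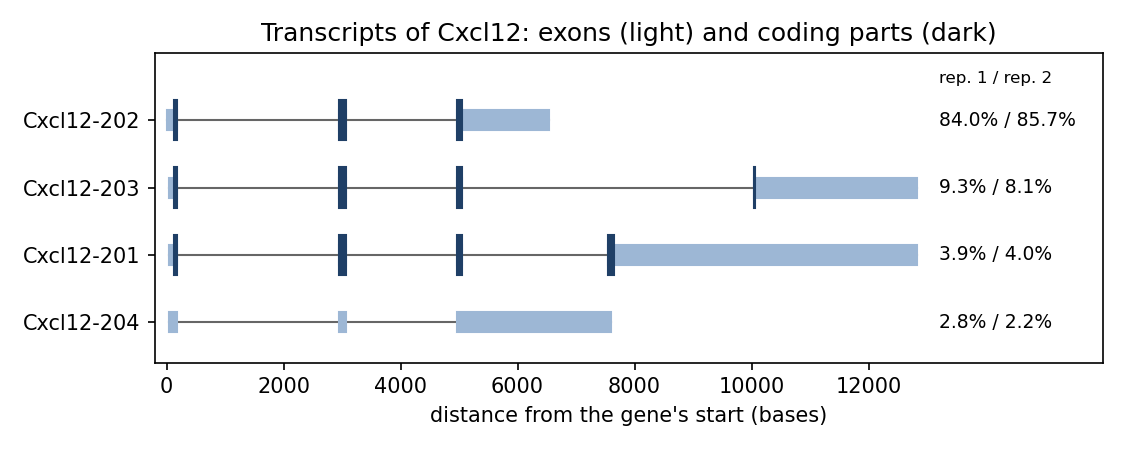
The 4 transcripts of Cxcl12 by distance from the gene's start in bases (x axis), with exons in light blue, coding parts in dark blue and, at the right, the share of the gene's TPM in replicates 1 and 2. The coding parts of the first 3 are alike up to the third exon, after which Cxcl12-203 and Cxcl12-201 go on to last exons that begin at different sites. The last exon of Cxcl12-203 lies within that of Cxcl12-201. Cxcl12-202 holds 84.0% and 85.7%.

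The other genes were carried by 1 main transcript each. Cxcl14 had a single transcript in the tables, Cxcl14-201, though M21 lists 2. Its share of 100% therefore follows from the annotation, and the difference between the libraries is that of the transcript as annotated. For Cx3cl1 the full-length Cx3cl1-201 held 100% of the gene in replicate 1 and 95.1% in replicate 2. It stood at 24.99 and 28.61 TPM, and the authors' intervals, 22.9 to 25.3 and 26.2 to 29.0 TPM, lay apart. In replicate 2 a further 4.37% went to Cx3cl1-203, a transcript annotated for nonsense-mediated decay, at 17.51 estimated counts against 0 in replicate 1. The wide intervals of Cx3cl1-203, up to 2.73 and 4.78 TPM, overlapped. Ackr3-201 held 100% and 97.98% of Ackr3, and the rest of replicate 2 was 1 count on Ackr3-202.

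Cxcr4 differed between the libraries in its second transcript. The coding sequences begin as follows, with capitals for the 6 bases from position 16 that Cxcr4-201 has and Cxcr4-202 lacks; they span chr1:128589887-128592209 on the minus strand across the intron.
Cxcr4-201: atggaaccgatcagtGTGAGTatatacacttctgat
Cxcr4-202: atggaaccgatcagtatatacacttctgat
Cxcr4-202 therefore lacks 2 codons near the start of the receptor, in the outer tail that meets the ligand. The model of Cxcr4-202 is 902 bases long and lacks the end of the gene. Cxcr4-201 stood at 6.77 and 7.17 TPM, 100% and 84.22% of the gene. Cxcr4-202 stood at 0 TPM in replicate 1 and 1.34 TPM in replicate 2, or 15.78% of the gene there. That share rests on 21.08 estimated counts, and the authors' intervals for Cxcr4-202, up to 1.30 TPM in replicate 1 and 0.268 to 2.76 TPM in replicate 2, overlapped. From the authors' posterior means its share was 6.6% and 17.61%. The assignment of those counts to the shorter model goes with the shorter effective length of Cxcr4 in replicate 2.

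**Figure D4:**
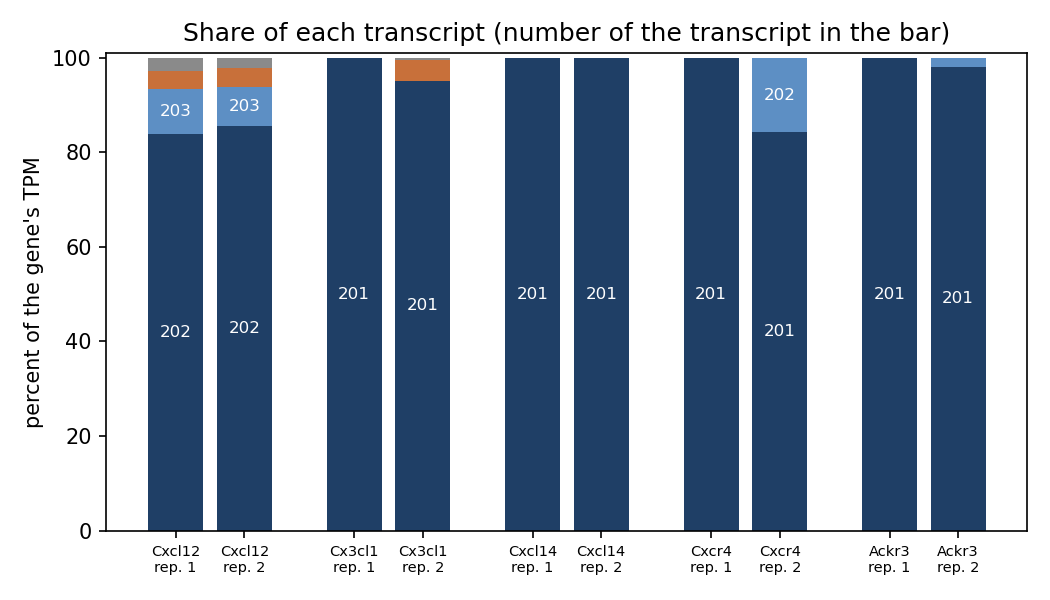
Percent of each gene's TPM (y axis) held by its transcripts in replicates 1 and 2, with the transcript number in segments of at least 8%; the unnumbered segments are Cxcl12-201 (orange) and Cxcl12-204 (grey), Cx3cl1-203 (orange) and Cx3cl1-204 (grey, 0.53% in replicate 2), and Ackr3-202 (blue). One transcript holds over 80% of every gene in each library, and Cxcr4-202 appears in replicate 2 alone.

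Among chemokine ligands of the mouse, Cxcl12 and Cx3cl1 were among the few at a substantial level. Of 35 other ligands measured, 10 reached 1 TPM in both libraries and 5 had no count in either, which allows up to 0.0859 and 0.0895 CPM. Over all 38 ligands Cxcl12 held 13.3% and 14.5% of the summed TPM (13.9% ± 0.806, SD, n = 2), rank 2. Cx3cl1 held 6.84% and 8.65%, rank 4, and Cxcl14 0.476% and 1.36%, rank 7. The first was Ccl27a, a chemokine known from skin, listed at 212 and 193 TPM. Its counts are uncertain, because they were not whole and the gene overlaps Il11ra1 on the opposite strand, and whether strand was used in counting is not given in the sources used here. Pf4, a chemokine of platelets and macrophages, lay close to Cxcl12 at 44.6 and 37.3 TPM.

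Of the 35 ligands 13 were tested and 3 were called, against 34.4% of all genes tested. The 3 were Ccl27a, Pf4 and Cxcl16, each lower in replicate 2, while the median log2 ratio of the list was 0.00. With scaling to the spike-in RNAs the calls of Ccl27a and Pf4 were lost and Cxcl16 alone was left. Ccl25, which overlaps Elavl1, stood at 8.53 and 9.31 TPM and Cxcl16, a membrane-held chemokine like Cx3cl1 that overlaps Zmynd15, at 8.08 and 6.31 TPM. Ccl6 and Ccl12, chemokines of myeloid cells, stood at 1.97 and 2.50 TPM and at 2.46 and 1.75 TPM. Cxcl9, Cxcl10 and Cxcl11, the ligands of Cxcr3, lay below 0.2 TPM in both libraries.

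The receptors beyond Cxcr4 and Ackr3 were sparser. Of 21 other receptors, 3 reached 1 TPM in both libraries. Over all 23 receptors Ackr3 held 18.2% and 17.1% of the summed TPM (17.7% ± 0.757, SD, n = 2) and Cxcr4 14.1% and 17.6% (15.8% ± 2.48), behind Ackr1. Ackr1, a chemokine scavenger of red cells and venules, was listed at 18.5 and 19.4 TPM but overlaps Cadm3 on the same strand, so its reads are uncertain. Ackr2, another scavenger, stood at 1.92 and 2.40 TPM.

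Cx3cr1, the receptor of Cx3cl1, was lower in the library where its ligand was higher. It stood at 7.09 TPM in replicate 1 and 5.27 TPM in replicate 2 (6.18 ± 1.29 TPM, SD, n = 2), on 479 and 328 counts. Replicate 2 was lower, and the exact two-sided binomial test with Benjamini-Hochberg adjustment gave an adjusted p of 1.84e-05; the call held under the 3 other scalings. The counts were whole, but the Cx3cr1 gene model overlaps 9 other genes, Gorasp1, Csrnp1 and Xirp1 among them on the same strand, so its reads are uncertain. The 8 microglia genes, the cells that carry Cx3cr1, summed to 130 and 134 TPM and none was called, or 1, higher, with spike-in scaling. Among them C1qb stood at 38.4 and 42.2 TPM, and P2ry12 at 6.03 and 5.71 TPM. Of the 9 other receptors tested, 1 was called higher and 3 lower, against 34.4% of all genes tested. Among those called were Ccr1, at 1.15 and 0.43 TPM, and Ccr9, at 0.19 and 0.48 TPM and higher in replicate 2. Both are named here after their values were seen. Ccr9 rested on 13.21 and 29 counts. Its gene model overlaps 6 other genes, Gm17200 and Gm17020 among them on the same strand, so its reads are uncertain. Of 8 genes of blood leukocytes 2 reached 1 TPM in both libraries, S100a8 at 10.7 and 8.38 TPM and S100a9 at 6.46 and 6.79 TPM. The 8 summed to 19.5 and 16.5 TPM. Of 4 tested 1 was called, Mpo, lower in replicate 2 on 33.78 and 4 counts, against 34.4% of all genes tested. Cd3e, a mark of T cells, stood at 0 and 0.08 TPM.

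**Figure D5:**
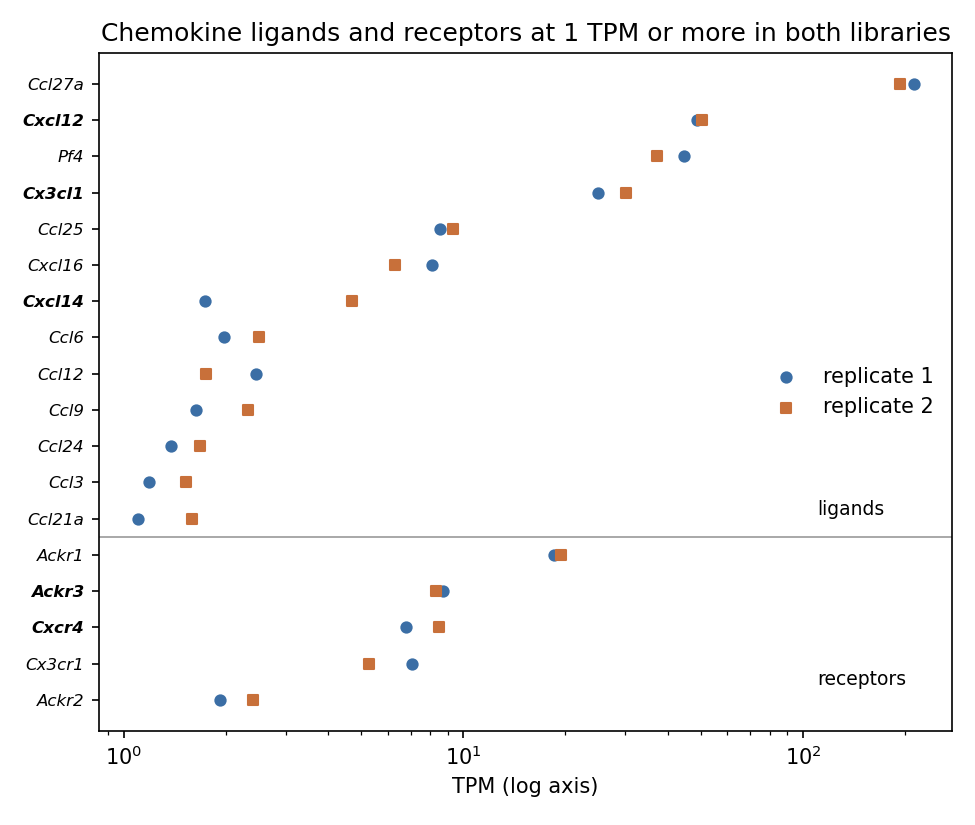
Level in TPM (log axis) in replicate 1 (circles) and replicate 2 (squares) of all chemokine ligands (upper part) and receptors (lower part) that reached 1 TPM in both libraries, with the 5 genes in bold. Ccl27a leads the ligands at 212 and 193 TPM, followed by Cxcl12, Pf4 and Cx3cl1, and Cxcl14 shows the widest gap between the libraries.

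The list of receptor signalling and turnover held G protein subunits, arrestins, receptor kinases and the ubiquitin ligase Itch. All 12 of its genes reached 1 TPM in both libraries, with a median log2 ratio of 0.08. Of these 4 were called, all higher in replicate 2, against 34.4% of all genes tested. With spike-in scaling 7 were called, all higher, against 43.6% of all genes tested, of which 80.6% were higher. Gnb1, a G protein beta subunit, stood at 889 and 957 TPM, and the inhibitory alpha subunit gene Gnai2 at 222 and 234 TPM. Gnao1, the alpha subunit of neurons, stood at 155 and 183 TPM, and Gnai3 at 105 and 115 TPM. The arrestin genes, through which Ackr3 acts, were lower, Arrb2 at 48.6 and 45.5 TPM and Arrb1 at 7.95 and 7.90 TPM.

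Both proteases known to shed Cx3cl1 were present. Adam10 stood at 44.4 and 44.7 TPM and Adam17 at 15.4 and 14.9 TPM, and neither was called. Mif, a cytokine that also binds Cxcr4, stood at 1478 and 1310 TPM, far above Cxcl12, and was called lower in replicate 2 (adjusted p = 3.6e-41, exact binomial test with Benjamini-Hochberg adjustment). Its counts were not whole, and since the gene has near-identical pseudogenes they are uncertain. Cd74, a partner of Cxcr4 in binding Mif, stood at 1.81 and 1.56 TPM. Dpp4, the protease that trims and inactivates Cxcl12, stood at 1.03 and 0.85 TPM and did not reach 1 TPM in both.

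Heparan sulfate is the sugar chain that holds Cxcl12 on cell surfaces. All 20 listed genes of its synthesis, trimming and core proteins reached 1 TPM in both libraries, with a median log2 ratio of 0.08. Of these 5 were called higher and 5 lower, against 34.4% of all genes tested. With spike-in scaling 8 were called higher and 3 lower, against 43.6%. Sulf2, which removes sulfate groups from the chain, stood at 109 and 114 TPM, yet in scaled counts it was among the 5 called lower (log2 -0.09), a call that was lost with spike-in scaling (0.04). The core protein gene Sdc3 stood at 86.8 and 104 TPM, and another, Gpc3, at 96.4 and 81.9 TPM. Ext2, an enzyme that builds the chain, stood at 56.1 and 62.7 TPM. The 8 endothelial genes, from cells that are another source of Cxcl12, summed to 214 and 212 TPM, with 2 called lower, or 0 with spike-in scaling, and Cldn5 among them stood at 96.3 and 93.0 TPM.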

How the data were processed

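Per the file headers and the accompanying descriptions, reads were assigned by the authors to mm10 with annotation M4, separately for each library. Aligner, quantifier and strandedness: not given in the sources used here. Expected counts, as deposited, are the authors' estimates of reads for each gene or transcript and can be fractional. For TPM values and FPKM values the authors scaled over all 69691 features, spike-in RNAs among them, so that a larger spike-in share lowers the TPM of all genes. The deposited percent of each gene held by a transcript and the authors' credibility bounds, used as score values, were taken as they stand; the level of the bounds is not stated, and they surround the posterior mean.

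With version numbers dropped from the identifiers, symbols were found for 42462 of 43346 genes. Coordinates, transcript names and sequences came from GENCODE M21 on GRCm38, the same assembly; gene models can differ from M4. For all 5 genes the 10 expected counts at gene level were whole, and no other M21 gene overlaps them.

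Detection was set at 1 TPM in both libraries. Log2 ratios used a pseudocount of 1 and are replicate 2 over replicate 1. Rounded expected counts with a mean of at least 10 were scaled by gene totals and compared by an exact two-sided binomial test. Benjamini-Hochberg adjustment was over all genes tested, with a threshold of 0.05. The test was tried on simulated counts that held counting error alone, which cannot show how it behaves where libraries differ by more. With 1 group of 2 libraries no model across replicates could be fitted, and p-values measure only the spread between these libraries. No molecular identifiers were counted, so reads are not independent molecules, and intervals and floors cover counting error only. Results for some list members are not reported here. The 5 genes and the gene lists were chosen with earlier results of these data known. Text names the 5 genes, the 6 most abundant detected members of the lists of other ligands and receptors and up to 4 of every other list; some further members are named for a contrast in role and were chosen after their values were seen. Alternatives were scaling to spike-ins, by TMM (edgeR 4.0.16) or by size factors (DESeq2 1.42.0), applied to the lists after seeing the data, other count filters and pseudocounts, FPKM, the posterior mean, TPM without spike-in and mitochondrial features, other detection limits and each library alone. Tables were handled with pandas 2.3.3 in Python 3.11.15, tests run with scipy 1.17.1, and scaling factors computed in R 4.3.3.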

Additional observations from a re-analysis of the deposited data

How the results depend on the processing

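No paired analysis was possible because both libraries belong to 1 group. Of 6 alternatives for the count of genes called, 5 stayed within 1.5 times of 6082 and the 2-fold minimum gave 555, with 1 of the 5 chemokine genes called in place of 2. At 5 TPM 4 other ligands were detected in place of 10, and at 0.5 TPM 6 other receptors in place of 3; the other 46 of 48 counts for lists moved less. Of 20 alternatives for the levels 16 lay within 1 SD of the mean. The values of each library alone are counted among the 16, and with 2 libraries they always lie within 1 SD. Without spike-in and mitochondrial features the levels were 56.3 TPM for Cxcl12, 9.67 TPM for Ackr3 and 31.2 TPM for Cx3cl1, as that denominator is smaller, and the posterior mean of Cxcl12 was 48.2 TPM. Of 35 alternatives for the log2 ratios 34 lay within the spread. Cx3cl1 was at 0.16 with TMM-scaled counts and at 0.26 with spike-in scaled counts, and neither is divided by length. From posterior means the share of the main transcript was 97.2% for Ackr3 and 92.7% for Cx3cl1, where the deposited shares averaged 99.0% and 97.5%; the cause was not tested. None of these values for the 5 genes reversed under an alternative after being called; among list genes called lower, Sulf2 (log2 -0.09), Meis1 (-0.09) and Hoxa5 (-0.08) turned to 0.04, 0.03 and 0.05 with spike-in scaling. With 64 and 159 counts Cxcl14 is the least precise of the 5 genes, and transcripts such as Cxcr4-202, on about 21.08 counts, cannot be told from 0 in 1 library at this depth.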
